A study of Mus musculus with 4 samples.

Results

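The genes Nnt, Ndrg1, Alas1, Keap1, Tmem86a and Arsg were followed across the renal cortex of mice with and without ICAM-1, an adhesion molecule that lets leukocytes attach to vessel walls. They were selected on their genotype differences on these same arrays (ND-KO against ND-WT and DM-KO against DM-WT, groups defined below), so the genotype differences given for them are descriptions and carry no test. They are 6 of 9118 genes with a symbol on the array, and they are read by 7 probes, of which Ndrg1 has 2. Every one of the 7 spots was usable on all 4 arrays.

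Male C57BL/6J mice with intact ICAM-1 (WT) and male ICAM-1-/- mice on a C57BL/6J background from The Jackson Laboratory (KO) received, at 8 weeks of age, either streptozotocin at 200 mg/kg, a toxin of the insulin-producing beta cells, or citrate buffer alone. Kidneys were taken 12 weeks later, at 20 weeks of age. In the names of the 4 groups, ND marks buffer and DM marks streptozotocin: ND-WT and ND-KO were the nondiabetic controls, and DM-WT and DM-KO their diabetic counterparts. Each group had 5 mice and 1 CodeLink one-colour array, and whether its RNA was pooled is not given in the labels. Each group is thus a single measurement, and genotype, the genetic background that surrounds the targeted gene and the individual array cannot be told apart in any difference between 2 arrays. The labels do not describe the ICAM-1 allele further, and the KO mice were a purchased line, not described as littermates of the WT mice. Mice were kept as diabetic only if their blood glucose passed a set level in the week after injection. In bulk cortex, fewer cells of a type and less RNA per cell cannot be told apart.

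Of 10032 gene probes, between 62.8% (DM-WT) and 66.2% (DM-KO) gave a usable spot, and 5909 genes, probes without a symbol included, were measured on all 4 arrays. The DM-WT array was dimmer, with a median background-subtracted intensity of 37.7 against 43.5 to 46.3 on the others, and had a faulty strip in print columns 44 to 48 of its upper block. None of the 7 probes lay in that strip. All 13 proximal tubule markers on the array were measured everywhere. So were all 7 thick limb and distal tubule markers and all 7 collecting duct markers, so these counts do not single out the proximal tubule. None of the 4 podocyte markers on the array was measured on any pair of arrays. Repeat spots of control transcripts gave a spot-to-spot error of 0.155 on the log2 scale for a difference of 2 arrays, which covers neither mice nor hybridisations. This error is a standard deviation and not a limit, so spot noise by itself often exceeds it. A value called within or beyond it below is described, not tested. It was taken from background-subtracted intensities before normalization, not from the normalized levels compared with it below. Whether it holds for dim genes was not checked. The targeted gene itself, Icam1, was not analysed here.

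The 6 genes belong to different pathways. Nnt encodes the nicotinamide nucleotide transhydrogenase of the inner mitochondrial membrane, which uses the proton gradient to pass hydride from NADH to NADP and so supplies NADPH for peroxide removal. The C57BL/6J substrain is known for a deletion within Nnt that abolishes the protein, while related C57BL/6 substrains carry an intact gene. Whether the Nnt probe lies inside the deleted stretch is not known here, so its level does not tell intact from deleted transcript. Alas1 encodes the rate-limiting enzyme of haem synthesis outside red cells. Ndrg1 encodes a cytoplasmic protein induced by hypoxia and other cell stress and phosphorylated by the kinase Sgk1. Keap1 encodes the adaptor that marks the transcription factor NRF2 for degradation, and it releases NRF2 when cells meet electrophiles or oxidants. Tmem86a encodes a membrane protein of the lysoplasmalogenase family, which acts on ether lipids, and Arsg encodes arylsulfatase G, a lysosomal enzyme of heparan sulfate breakdown.

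Promoters of 4 of the 6 genes could be matched in RefSeq (GRCm38.p6). They are shown because Tmem86a and Arsg were both higher on KO and because Alas1 and Keap1 lie on the chromosome of Icam1. The likeness of Tmem86a and Arsg follows in part from how the genes were chosen. Each sequence is the 250 bases before an annotated start, 5′ to 3′ on the gene's own strand. Capitals mark matches, on either strand, to ACGTG (the core of hypoxia-response elements), TGACG (a cAMP-response half-site), CACGTG (an E-box, which holds ACGTG), TGACNNNGC (the core of the NRF2-bound element) or GCGCATGC (the NRF1 core). For genes with several annotated starts the window of one start is shown.
Tmem86a, chr7:47050390-47050639, plus strand: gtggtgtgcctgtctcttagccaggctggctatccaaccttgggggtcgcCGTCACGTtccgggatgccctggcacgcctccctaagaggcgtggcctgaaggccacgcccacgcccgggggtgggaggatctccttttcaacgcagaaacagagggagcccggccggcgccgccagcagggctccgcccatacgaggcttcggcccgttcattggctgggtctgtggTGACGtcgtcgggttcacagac
Arsg, chr11:109485642-109485891, plus strand: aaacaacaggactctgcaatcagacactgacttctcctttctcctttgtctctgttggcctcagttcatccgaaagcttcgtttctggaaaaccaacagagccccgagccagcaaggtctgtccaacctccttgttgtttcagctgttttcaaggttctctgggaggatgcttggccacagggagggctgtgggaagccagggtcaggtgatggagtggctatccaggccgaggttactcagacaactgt
Alas1, chr9:106247955-106248204, minus strand: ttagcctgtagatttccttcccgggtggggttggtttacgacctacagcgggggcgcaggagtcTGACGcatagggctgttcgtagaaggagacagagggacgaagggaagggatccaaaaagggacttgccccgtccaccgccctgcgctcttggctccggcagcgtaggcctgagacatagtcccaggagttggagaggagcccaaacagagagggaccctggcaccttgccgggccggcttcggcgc
Keap1, chr9:21239333-21239582, minus strand: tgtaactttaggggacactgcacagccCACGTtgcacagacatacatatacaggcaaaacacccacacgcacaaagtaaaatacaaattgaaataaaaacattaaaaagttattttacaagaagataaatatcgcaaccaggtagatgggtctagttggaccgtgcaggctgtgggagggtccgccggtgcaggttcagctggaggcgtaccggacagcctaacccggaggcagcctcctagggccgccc
The Tmem86a window held 1 ACGTG and 2 TGACG matches, one of which overlaps the ACGTG match. The Alas1 window held 1 TGACG match, the Keap1 window 1 ACGTG match, and the Arsg window none of the 5 motifs. The window of the other annotated Alas1 start, not printed, held 2 overlapping GCGCATGC matches. Among 32851 RefSeq promoters of the same length, 16.6% held ACGTG, 17.8% TGACG, 6.02% CACGTG, 10.2% TGACNNNGC and 2.26% GCGCATGC, and a match describes letters, not a bound site. Tmem86a and Arsg thus shared none of these motifs in the windows shown.

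Levels below are normalized log2 intensities, and a difference is a log2 difference of 2 arrays. In intact mice Nnt stood at 9.12 (ND-WT) and 9.13 (DM-WT), against 8.45 (ND-KO) and 8.40 (DM-KO) in knockouts. Both WT arrays were above both KO arrays, and within each genotype the gap between the arrays was under the spot-to-spot error. The background-subtracted spot intensities before normalization were 541, 436, 318 and 304 in the same order. Nnt was therefore 1.58-fold lower on ND-KO than on ND-WT and 1.66-fold lower on DM-KO than on DM-WT, with log2 differences of -0.66 and -0.73. The difference of those differences, -0.07, lay within its own spot-to-spot error of 0.22.

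In intact mice Ndrg1 stood at 9.69 (ND-WT) and 9.96 (DM-WT), against 8.73 (ND-KO) and 9.12 (DM-KO) in knockouts as the mean of its probes. The order DM-WT, ND-WT, DM-KO, ND-KO had no gap below the spot-to-spot error, and it was the same for either probe. In that order the first probe read 8.53, 8.18, 7.60 and 7.23, and the second read 11.39, 11.21, 10.64 and 10.22. Ndrg1 had the largest genotype difference of the 6 genes, 1.96-fold lower on ND-KO (-0.97) and 1.80-fold lower on DM-KO (-0.84). Its probes gave -0.95 and -0.99 without diabetes and -0.93 and -0.76 with diabetes. The gap between the probes, 0.04 and 0.18, compares with a median gap of 0.07 and 0.10 over 60 genes with 2 measured probes. The difference of the genotype differences was 0.12 for the mean of the probes, within the error of 0.22. By probe it was 0.01 for the first and 0.23 for the second, which is slightly beyond that error.

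In intact mice Alas1 stood at 10.36 (ND-WT) and 10.29 (DM-WT), against 9.75 (ND-KO) and 9.53 (DM-KO) in knockouts. The WT arrays were level within the spot-to-spot error, and DM-KO lay below ND-KO by more than that error. Alas1 was 1.53-fold lower on ND-KO (-0.61) and 1.70-fold lower on DM-KO (-0.76), and the difference of those differences was -0.15, within its error.

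In intact mice Keap1 stood at 7.22 (ND-WT) and 6.98 (DM-WT), against 6.87 (ND-KO) and 6.87 (DM-KO) in knockouts. Only ND-WT stood apart, and the other 3 arrays lay within the spot-to-spot error of their neighbour in the order. Keap1 was 1.27-fold lower on ND-KO (-0.35) and 1.08-fold lower on DM-KO (-0.11), so it never reached the 1.5-fold used below to count genes. Its difference of differences, 0.24, was the only one of the 6 at gene level beyond the spot-to-spot error of 0.22. It exceeded that standard deviation only slightly, so no departure is read from it. Its subtracted spot intensities were 103 and 66.4 in intact mice and 70.3 and 72.5 in knockouts, without and with diabetes. The nondiabetic difference of Keap1 changed with the handling of background, to -0.56 after plain subtraction and to -0.58 in the authors' value table.

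Tmem86a ran the other way, at 7.39 (ND-WT) and 7.28 (DM-WT) in intact mice and at 8.15 (ND-KO) and 8.03 (DM-KO) in knockouts. Both KO arrays were above both WT arrays, and within each genotype the arrays were level within the spot-to-spot error. It was 1.70-fold higher on ND-KO (0.77) and 1.69-fold higher on DM-KO (0.76), with a difference of differences of -0.01. Arsg likewise stood at 7.62 (ND-WT) and 7.42 (DM-WT) in intact mice and at 8.21 (ND-KO) and 8.13 (DM-KO) in knockouts. It was 1.51-fold higher on ND-KO (0.60) and 1.63-fold higher on DM-KO (0.71), and its difference of differences, 0.11, was within the error. ND-WT and DM-WT differed for Arsg by more than the spot-to-spot error, and the KO arrays did not.

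**Figure D1:**
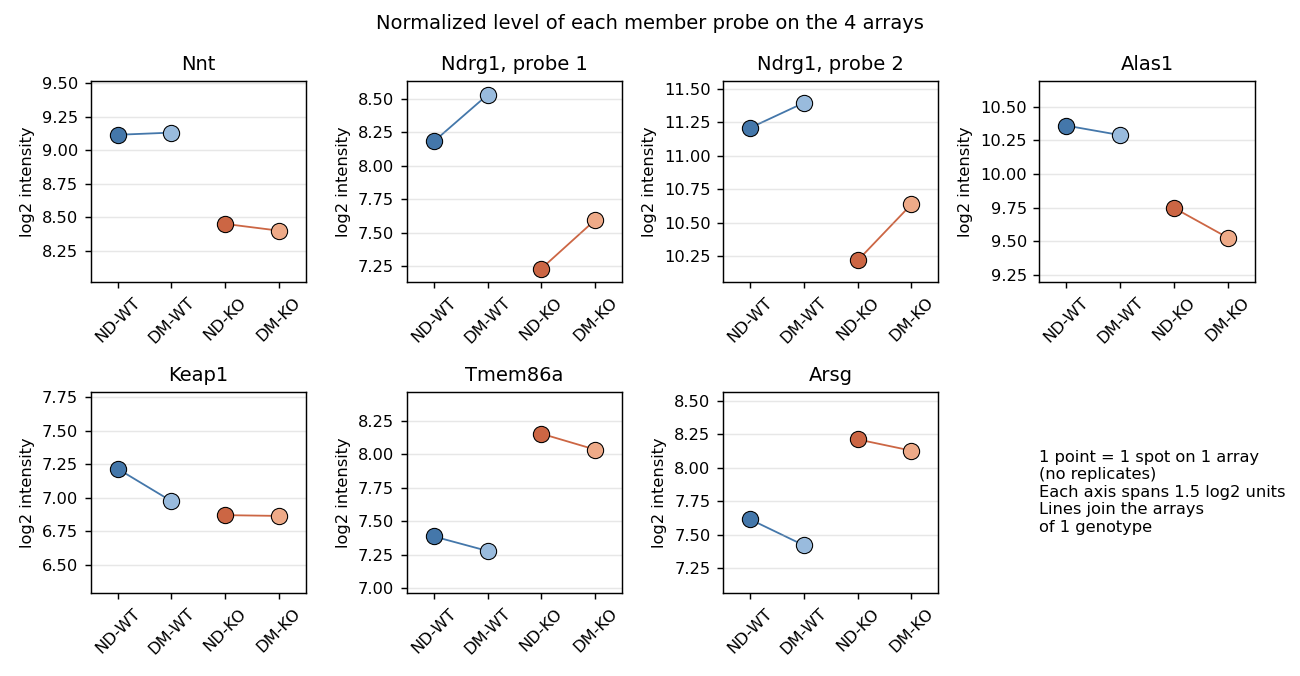
Normalized log2 intensity (vertical axes, each spanning the same number of log2 units) of the 7 probes on the 4 arrays, 1 point per spot with no replicates, lines joining arrays of one genotype. Nnt, both Ndrg1 probes and Alas1 lie lower on both KO arrays, Tmem86a and Arsg lie higher on both, and Keap1 stands apart on ND-WT only.

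At a threshold of 1.5-fold, 5 of the 6 genes passed in each genotype comparison and Keap1 in neither. This count was fixed by how the genes were chosen and nothing is read from it. The background was small: 0.176% of 6253 genes were at least 1.5-fold higher and 0.432% at least 1.5-fold lower on ND-KO than on ND-WT. With diabetes, 0.77% of 6106 genes were higher and 1.05% lower on DM-KO than on DM-WT. The split of higher to lower genes moved with the processing. With diabetes it was 47 to 64 and turned to 62 to 47 with median scaling. Without diabetes it was 11 to 27 and stayed near that with median scaling, at 14 to 29. It became 71 to 88 after plain subtraction of background and 74 to 91 in the value table. In the nondiabetic pair Ndrg1 ranked 4, Nnt 19, Alas1 26 and Keap1 103 from the lowest of 5788 genes with a symbol, and Tmem86a ranked 6 and Arsg 10 from the highest. In the diabetic pair the same genes ranked 29, 40, 34 and 1295 from the lowest of 5659, and 16 and 22 from the highest. They sat less far out among all genes there, where the spread was wider, with an SD over all genes of 0.213 against 0.149.

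Over 5909 genes measured everywhere, 4 (0.0677%) were at least 1.5-fold higher and 14 (0.237%) at least 1.5-fold lower on KO in both comparisons. These 18 hold the 5 genes and 13 others, which were named after their values were seen. The other higher ones were Cirbp, a cold-induced RNA-binding protein (0.62 without and 1.05 with diabetes), and Entpd4, a nucleotide-hydrolysing enzyme (0.92 and 0.85). The other lower ones were the stress chaperones and endoplasmic reticulum stress genes Hspa1a, Hspa1b, Chordc1, Manf, Herpud1 and Ddit3, the glucocorticoid-inducible Sgk1, Tsc22d3 and Pck1, and Pdlim1 and Plin2. Hspa1a and Hspa1b are nearly identical and may share signal. Among the 18, several had far larger diabetic than nondiabetic differences, such as Hspa1a (-0.95 and -2.37) and Sgk1 (-0.74 and -2.09). Others had values of like size in both pairs, among them Plin2 (-1.42 and -1.34), Entpd4 and Chordc1 (-0.65 and -0.68), as did Nnt, Ndrg1, Alas1, Tmem86a and Arsg.

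**Figure D2:**
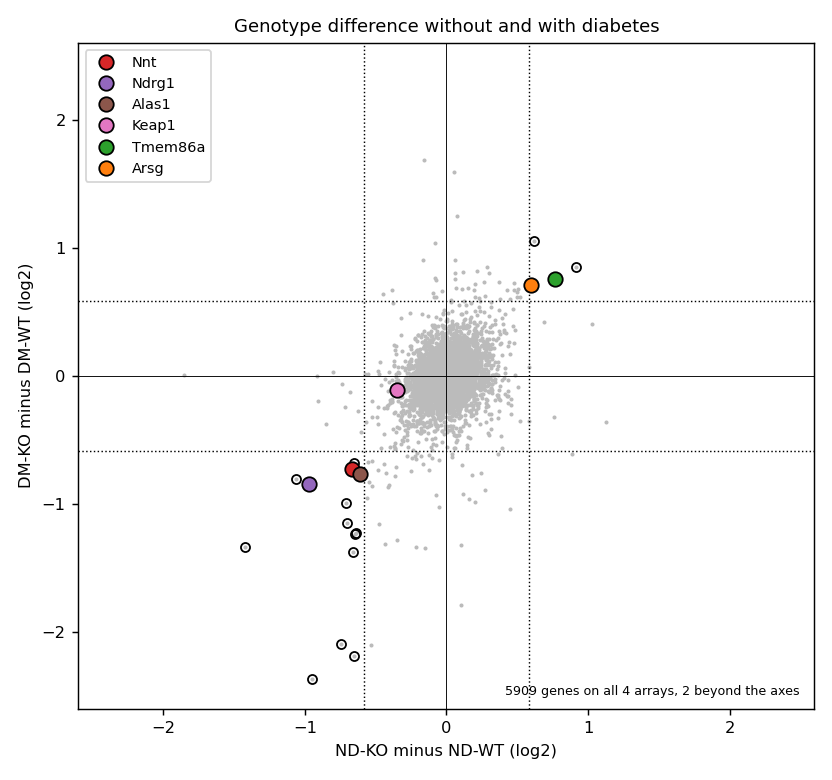
Genotype difference with diabetes (vertical, DM-KO minus DM-WT, log2) against that without diabetes (horizontal, ND-KO minus ND-WT, log2) for 5909 genes in grey, with the 6 genes coloured, the 13 other genes past 1.5-fold in both as open circles, and dotted lines at 1.5-fold. The 5 genes past both lines lie near equal values on the axes, and Keap1 lies inside the lines at -0.35 and -0.11.

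Genes whose 4-array profile was most like each of the 6 were found among 5472 genes with a symbol, by the root mean square difference of the log2 values after each gene's own mean was removed. Nnt was nearest to Cdr2 (0.05), Chordc1 (0.06) and Alas1 (0.07), and Alas1 to Chordc1 (0.03), Dnaja1 (0.04) and Cdr2 (0.06). Chordc1 and Dnaja1 encode co-chaperones. Ndrg1 was nearest to Manf (0.09), Herpud1 (0.16) and Ddit3 (0.19), which are genes of the endoplasmic reticulum stress response. Tmem86a was nearest to Arsg (0.06), then Nrep (0.10) and Hnrnpd (0.11), and Arsg to Nrep (0.04), Hnrnpd (0.05) and Tmem86a (0.06). Keap1, whose genotype differences were the smallest of the 6, had the smallest distances, to Arf5 (0.013), Papss1 (0.017) and Cxxc1 (0.019). Distances were not scaled to how many genes lie near a profile, so they do not rank the genes by shared behaviour. Likeness over 4 arrays is a description of these arrays only. Likeness among the 6 genes themselves follows in part from their choice on the genotype differences.

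A knockout made in cells of another strain can keep donor sequence around the targeted gene, so positions were compared with RefSeq gene order (GRCm38.p6). Keap1 lies on the chromosome of Icam1 with 14 annotated genes between them. Alas1 lies on the same chromosome with 1720 annotated genes between, and Nnt, Ndrg1, Tmem86a and Arsg lie on other chromosomes. Of the 60 annotated genes within 30 of Icam1, 22 were on the array and 13 were measured in the nondiabetic pair. None of these 13 reached 1.5-fold, and their median difference was -0.02, against 0.00 over all genes. Keap1 differed by -0.35, while Mrpl4, the nearest measured neighbour of Icam1, differed by -0.02, Eif3g by -0.09, Cdc37 by 0.16 and Ap1m2 by 0.16. In the diabetic pair none of 14 reached 1.5-fold, the median was 0.00, and Keap1 at -0.11 lay within the range of its neighbours, from -0.14 (Mrpl4) to 0.14 (Fbxl12).

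On the whole chromosome of Icam1, 3 of 295 genes (1.02%) were past 1.5-fold in both comparisons, against 15 of 5176 (0.290%) on the other chromosomes. Taken singly, the nondiabetic pair gave 1.02% on the chromosome of Icam1 against 0.560% elsewhere, and the diabetic pair 1.36% against 1.85%, the opposite order. The 3 were Alas1, Chordc1, which lies 98 annotated genes from Icam1, and Manf, which lies 1750 from it. Alas1 and Manf lie close to each other in that order, 1721 and 1750 genes from Icam1, and no other gene of their block of 100 annotated genes passed, among 29 measured. Around Nnt, 3 of the 20 annotated genes within 10 were on the array, and none passed 1.5-fold in a pair where it was measured. Without diabetes Ccl28 differed by -0.30, in the direction of Nnt, and 4833420G17Rik by 0.18, in the other. With diabetes only 4833420G17Rik was measured in the pair, at 0.07. Whether background sequence bears on any of the 6 genes was not tested, since these arrays hold no genotype calls.

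**Figure D3:**
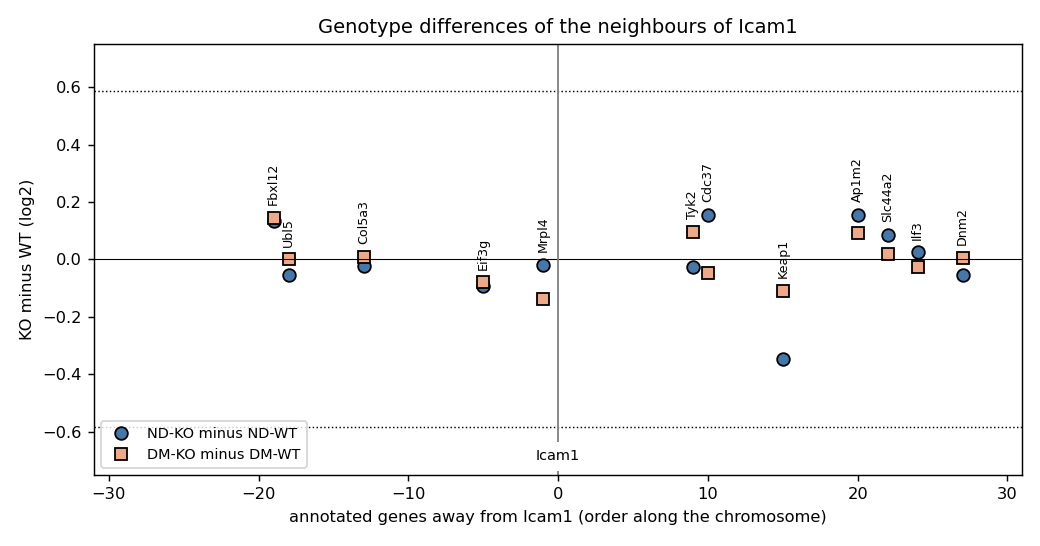
Genotype difference (vertical, KO minus WT, log2) of 12 genes measured on all 4 arrays against their place in the annotated gene order around Icam1 (horizontal, number of genes away), circles for the nondiabetic and squares for the diabetic pair, dotted lines at 1.5-fold. All points shown lie inside the lines, and Keap1 without diabetes is the lowest of them at -0.35.

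Pathway lists were described for each gene by counts and medians, beside medians over all genes of 0.00 without and -0.01 with diabetes. For Nnt, 27 genes of NADPH supply and peroxide removal were measured in both pairs. None was past 1.5-fold without diabetes and 2 were higher on KO with diabetes, and the medians were 0.04 and 0.01. The 2 were Gsr, the glutathione reductase that spends NADPH (0.20 without, 0.67 with diabetes), and Prdx5, a mitochondrial peroxiredoxin, whose spot lay in the faulty strip of DM-WT. Idh1, a cytosolic NADPH source, differed by 0.31 and 0.21, and catalase, Cat, by 0.10 and 0.30. Idh2, the mitochondrial isocitrate dehydrogenase that supplies NADPH beside Nnt, differed by -0.06 and -0.30.

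For Alas1, none of 18 measured genes of haem synthesis and breakdown was past 1.5-fold without diabetes, and 1 of 16 was lower on KO with diabetes. That gene was Hmox1, which encodes the haem-degrading oxygenase and stood at 8.30 and 8.93 in intact mice without and with diabetes and at 8.05 and 8.19 in knockouts. The list medians were -0.01 and 0.03. Alas2, the red cell counterpart of Alas1, differed by 0.31 without and -0.42 with diabetes, thus in opposite directions. Cpox, a later enzyme of the pathway, differed by 0.03 and 0.16, the ferritin light chain Ftl1 by 0.12 and 0.17, and the porphyrin exporter Abcg2 by 0.09 and 0.29.

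For Keap1, none of 31 measured genes of the KEAP1-NRF2 system was past 1.5-fold without diabetes. With diabetes 2 of 30 were higher on KO (Gsr, and the quinone reductase Nqo1) and 1 was lower (Hmox1), and the list medians were 0.11 and 0.07. Nqo1 differed by 0.27 and 0.62. Nfe2l2, which encodes NRF2, differed by -0.34 and -0.31. For Ndrg1, 1 of 25 genes of the NDRG family and hypoxia response, Sgk1, was lower on KO without diabetes. With diabetes 2 of 25 were lower, Sgk1 and the vasodilator peptide gene Adm (-0.66), and the medians were -0.01 and -0.04. The hypoxia-induced P4ha1 and Ddit4 differed by -0.14 and 0.06 without diabetes and by -0.50 and -0.46 with it, and Ndrg2, a close relative of Ndrg1, by 0.09 and 0.04.

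For Tmem86a, none of 10 measured genes of ether lipid and lysophospholipid metabolism without diabetes and none of 11 with diabetes was past 1.5-fold, with medians of -0.03 and -0.02. The phosphodiesterase gene Gpcpd1 differed by 0.18 and 0.17, and Enpp2, which encodes the lysophospholipase autotaxin, by -0.21 and -0.09. For Arsg, 1 of 15 sulfatase and lysosome genes was lower on ND-KO, Lamp2 (-0.80), and none of 15 passed with diabetes. The Lamp2 spot lay in the print strip that was faulty on DM-WT, an array outside the nondiabetic pair. The medians were -0.05 and -0.06. Hexa and Ctsa, lysosomal enzymes, differed by -0.11 and -0.29 without diabetes and by -0.39 and -0.19 with it, opposite in sign to Arsg.

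**Figure D4:**
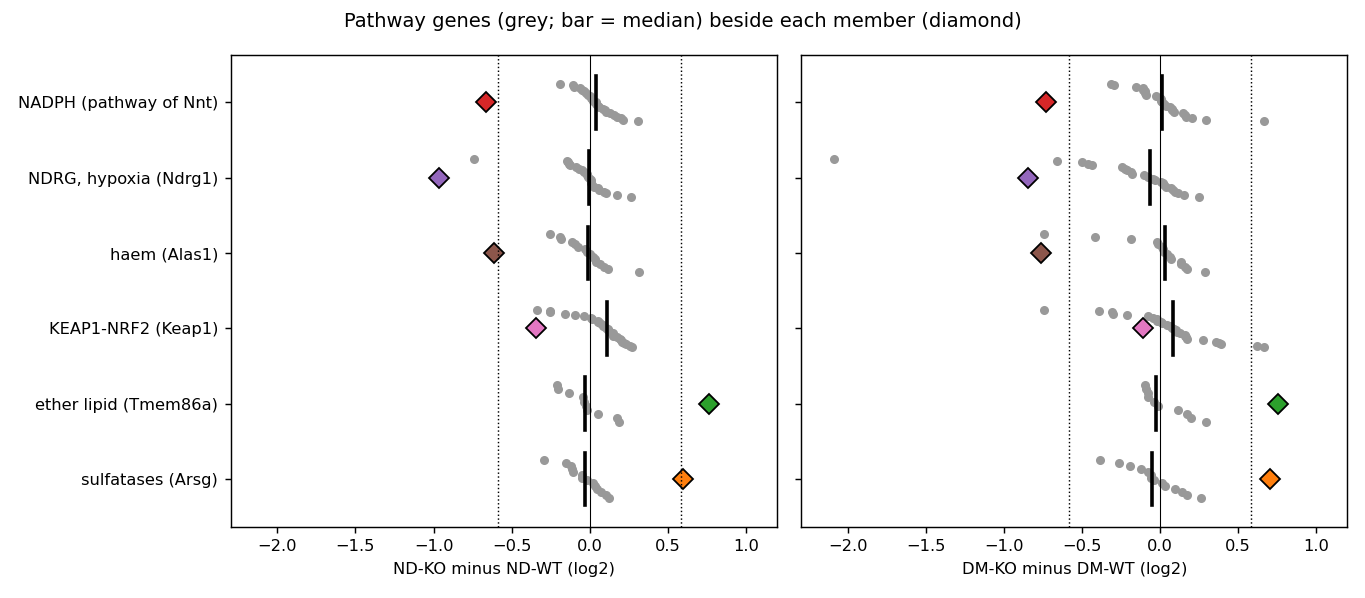
Genotype difference (horizontal, log2) without diabetes on the left and with diabetes on the right for the genes of 6 pathway lists, grey points in order of size with a bar at the median, and the gene each list belongs to as a diamond; genes measured on all 4 arrays and printed outside the faulty strip are shown, and dotted lines mark 1.5-fold. The diamonds of Nnt, Ndrg1, Alas1, Tmem86a and Arsg lie beyond the end of their lists on their own side of 0, except Ndrg1 with diabetes, where Sgk1 at -2.09 lies further out.

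Markers of other cells moved with some of these comparisons. Macrophage and monocyte markers, 7 measured of 10 on the array, had a median genotype difference of 0.06 without and -0.40 with diabetes, and mean log2 levels of 7.09 and 7.73 in intact mice without and with diabetes and 7.16 and 7.48 in knockouts. Collecting duct markers, 7 measured, had medians of -0.23 and 0.05. Proximal tubule markers had medians of 0.05 and 0.08, and the 2 measured adipocyte markers, Lpl and Fabp4, 0.26 and -0.38. The adipocyte markers Cfd and Adipoq, each usable on 1 array only, read 6.99 and 6.58 on ND-KO. They read 5.90 and 5.96 on ND-WT, 5.96 and 5.82 on DM-WT, and 5.85 and 5.78 on DM-KO. Red cell markers, 4 and 3 measured, had medians of 0.11 and 0.09. Thick limb and distal tubule markers, 7 measured, had medians of -0.12 and -0.15, with none of the 7 above 0 with diabetes. On that list Pvalb, at -0.43 and -0.76, was past 1.5-fold with diabetes, and Calb1 differed by -0.36 and -0.57. Lymphocyte markers, 4 and 5 measured, had medians of 0.05 and -0.07, and with diabetes 3 were past 1.5-fold, the B cell gene Cd79a higher (0.75) and the immunoglobulin genes Ighm (-0.90) and Jchain (-0.61) lower. Smooth muscle, pericyte and renin cell markers, 5 and 4 measured, had medians of 0.00 and -0.17, with Acta2 at -0.31 and -0.51. Endothelial markers, 7 measured, had medians of -0.06 and -0.07, and the liver markers, 1 and 2 measured, -0.42 and -0.19. No adrenal or skeletal muscle marker was measured. The part of these markers in the differences of the 6 genes was not tested.

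The genes were chosen on genotype and not on diabetes differences, but with earlier results of these data known, so their diabetes differences may not be free of the choice. None of the 6 was past 1.5-fold in either genotype, where 1.75% of 6050 genes were higher and 0.876% lower with diabetes in intact mice, and 0.537% of 6334 were higher and 0.505% lower in knockouts. The balance in intact mice turned with median scaling, from 106 higher and 53 lower genes to 69 and 124, and was 236 and 209 in the value table. Ndrg1 moved most, by 0.27 in WT and 0.39 in KO, with both probes higher in both genotypes (0.35 and 0.19 in WT, 0.36 and 0.42 in KO). Nnt differed by 0.02 and -0.05, Alas1 by -0.07 and -0.22, and Keap1 by -0.24 and -0.01. Tmem86a differed by -0.11 and -0.12 and Arsg by -0.19 and -0.08. The values beyond the spot-to-spot error, a standard deviation and not a test limit, were those of Ndrg1 in both genotypes, Alas1 in KO, Keap1 in WT and Arsg in WT.

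The additive limma fit over the 4 arrays, with diabetes and genotype as terms and Benjamini-Hochberg adjustment over 6507 genes, called none of the 6. It called 0.0154% of genes as risen, which is 1 gene, and 0.0% as fallen, while 829 genes had an unadjusted p below 0.05. With the faulty strip left out the same fit called 50 genes as risen and 43 as fallen, and again none of the 6. Each gene's own residual has 1 degree of freedom and is its departure from additivity, so it is not free of the choice of the genes. The SEs and p values below rest on variances that limma moderated across all fitted genes. Ndrg1 had a diabetes difference of 0.33 (SE 0.068, limma adjusted p = 0.226, unadjusted p = 0.00757), with adjusted p between 0.115 and 0.851 under the alternatives. Nnt had -0.02 (SE 0.0631, limma adjusted p = 0.946), Alas1 -0.15 (SE 0.0713, adjusted p = 0.49) and Keap1 -0.12 (SE 0.0839, adjusted p = 0.612). Tmem86a had -0.11 (SE 0.061, limma adjusted p = 0.531) and Arsg -0.14 (SE 0.0666, adjusted p = 0.485). A p above the threshold does not show that diabetes left these genes as they were.

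**Figure D5:**
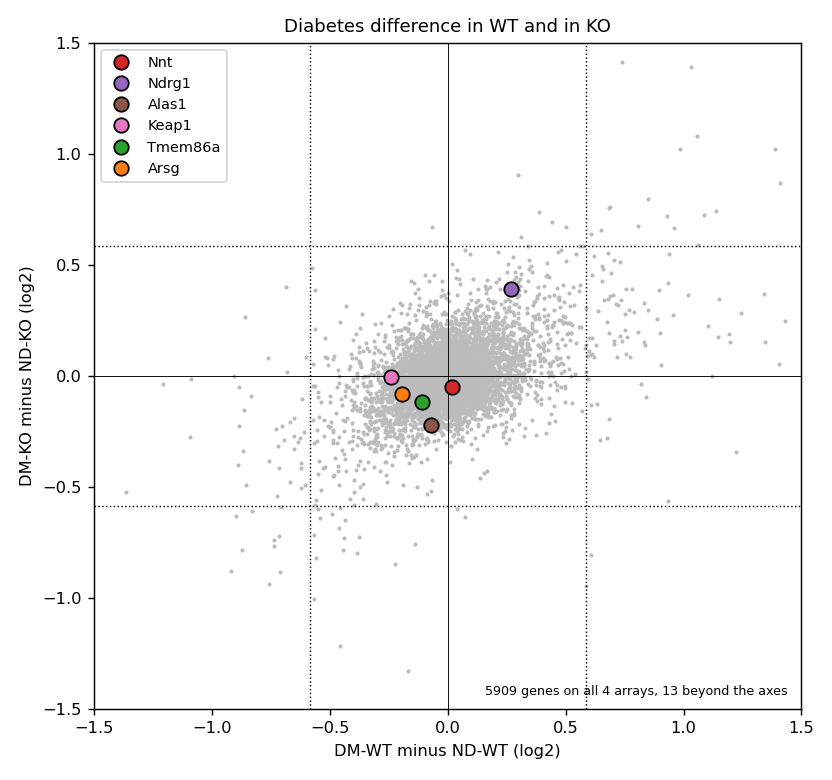
Diabetes difference in KO (vertical, DM-KO minus ND-KO, log2) against that in WT (horizontal, DM-WT minus ND-WT, log2) for 5909 genes in grey, with the 6 genes coloured and dotted lines at 1.5-fold. All 6 lie inside the lines, and Ndrg1 is the highest of them at 0.27 and 0.39.

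Among the pathway genes, diabetes differences past 1.5-fold were most frequent on the KEAP1-NRF2 list. It had 5 higher and 1 lower of 29 in WT and 2 higher and 1 lower of 31 in KO. Of its 32 tested genes limma called none. The lists were chosen with earlier results of these data known, so nothing is read from this order of frequency. The epoxide hydrolase Ephx1 differed by 1.39 in WT and 1.02 in KO, the glutathione transferase Gsta2 by 1.06 and 1.08, and the carboxylesterase Ces1g by -0.92 and -0.88. Keap1 itself differed by -0.24 and -0.01. On the haem list Hmox1 differed by 0.63 in WT and 0.14 in KO and the transferrin receptor Tfrc by 0.66 and 0.42, beside -0.07 and -0.22 for Alas1. On the hypoxia list Sgk1 differed by 1.40 in WT and 0.05 in KO, beside 0.27 and 0.39 for Ndrg1.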

How the data were processed

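Renal cortex RNA of 4 groups was read on 1 CodeLink array each. The scanner tables give the mean intensity and local background of every spot on a linear scale, plus a quality mark, per the file headers. The deposited value table holds the authors' processed intensity, which equalled spot mean minus background divided by 1 constant per array (43.9 and 38.1 for the WT arrays without and with diabetes, 45.0 and 46.9 for the KO arrays), for 100% of compared probes within 0.1%. Its column medians were 0.926, 0.930, 0.929 and 0.930. How the constant was chosen is not given in the sources used here. CodeLink Expression Analysis served to read the array images, per the labels' protocols.

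Here, intensities were corrected with normexp (offset 50) in limma 3.58.1 (R 4.3.3) and put on the log2 scale. Spots marked poor were then set to missing and control spots left out, and the remaining values were quantile-normalized. Probes took symbols from the platform annotation (8938) or an accession (321); 772 had none. Where a gene had several probes, their mean was used. A gene counted as measured where its spot was marked usable. Genotype differences were described by size and by a 1.5-fold count. Diabetes was tested in limma with genotype as a term, over 6507 genes measured on at least 2 arrays, at an adjusted p under 0.05, and the step was tested on simulated data. Alternatives were another offset, other background corrections, median scaling, the value table, leaving out the faulty strip or DM-WT, no filter, an intensity trend and no genotype term. Precision is limited by the number of arrays.

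The 6 genes, the pathway lists and the tests were chosen with earlier results of these data known. Besides the 6, the text names by rule up to 4 genes of each list with the largest mean genotype difference, known partners, and the 3 most alike profiles. Other names were chosen after their values were seen. Pathway and marker lists are described by counts and medians only. One neighbour of Icam1 is counted but not reported here.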

Additional observations from a re-analysis of the deposited data

How the results depend on the processing

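With 1 array per group, no difference between 2 arrays has a replicate check. No paired analysis was possible because each group has 1 array. Genotype differences of the 6 genes were recomputed at offset 16, without background correction, after plain subtraction, with median scaling, in the value table and with the faulty strip left out. In both pairs the same 5 genes passed 1.5-fold under these 6 settings, and none of the 6 genes changed sign. Keap1 did not pass, but without diabetes it fell only just short in the value table. It stood there at -0.583, where 1.5-fold is 0.585 in size. Of 132 alternative values for the 6 genes, 12 genotype differences moved by more than the spot-to-spot error, and no limma call on diabetes changed. At an offset of 16, Tmem86a with diabetes was 0.91. After plain subtraction, values without diabetes were -1.14 for Ndrg1, -0.56 for Keap1, 1.00 for Tmem86a and 0.75 for Arsg, and with diabetes 1.01 for Tmem86a and 0.92 for Arsg. In the authors' value table Ndrg1 was -1.18, Keap1 -0.58 and Tmem86a 0.98 without diabetes, and Tmem86a 0.99 and Arsg 0.92 with it. Leaving out DM-WT, chosen after seeing the data, could only touch the nondiabetic pair through normalization, so it says nothing of the diabetic pair.

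Counts of all genes past 1.5-fold moved more. For ND-KO against ND-WT, higher and lower counts were 26 and 51 at offset 16, 71 and 88 after plain subtraction, and 74 and 91 in the value table. For DM-KO against DM-WT they were 74 and 111, 119 and 186, and 122 and 179. For DM-WT against ND-WT they were 171 and 93, 267 and 155, and 236 and 209, and 69 and 124 with median scaling, where lower genes outnumbered higher ones. For DM-KO against ND-KO they were 61 and 54, 116 and 98, and 99 and 117. With no filter, 18 genes were higher on ND-KO, 93 higher on DM-KO and 90 lower on DM-WT than on ND-WT. The limma diabetes fit called 0 genes as risen at offset 16, without background correction, after plain subtraction, in the value table, with an intensity trend and without the genotype term. It called 30 risen and 51 fallen with median scaling, and 50 risen and 43 fallen with the faulty strip left out. The causes were not tested.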
